A study of Mus musculus with 4 samples.

Results

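The genes described here are 10 integrin subunits that immune cells use to stay in the skin or to enter it, Itgae, Itga1, Itga2, Itga4, Itgb1, Itgb7, Itgal, Itgb2, Itgam and Itgax, out of 31053 genes counted. They were chosen by name with earlier results of these data known, and the rule itself uses no measured value. Each was followed as unique molecular identifiers (UMIs, 1 per captured RNA molecule) per 10000 UMIs of a cell type, in cell types defined by other genes. The study sorted CD45+ cells, which are leukocytes, from mouse skin after digestion with collagenase and sequenced the 3' ends of their RNA in droplets, with 1 library per sample. The control skin group held 2 libraries from uninoculated C57/BL6 mice. The skin tumor group held 2 libraries of tumors that the 2323 cell line had formed in C57/BL6 hosts, which were between 8 and 10 weeks old when injected under the skin and were killed about 2 weeks later. The 2323 line came from a tumor of mice that were P53-/- and carried the transgenes K14rtTA and tetOCre, in which the promoter of the keratin gene K14 drives the activator of the recombinase. Both tumors came from this 1 line, while the labels give no engineered allele for the hosts or the control mice. The age of the control mice is not given in the sources used here, nor is the relation of the samples within a group (shared host, litter or day), so p-values measure the spread between these samples, which may be technical.

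An integrin is a pair of 1 alpha and 1 beta subunit that spans the membrane and binds a ligand once signals inside the cell have switched it on. The product of Itgae (CD103) pairs with that of Itgb7 and binds E-cadherin on epithelial cells, and those of Itga1 (CD49a) and Itga2 (CD49b) pair with that of Itgb1 and bind collagen, so that CD103 and CD49a are used as marks of lymphocytes that stay in the skin. The product of Itga4 (CD49d) pairs with that of Itgb1 or Itgb7 and binds VCAM-1, fibronectin and MAdCAM-1, which serves the entry of leukocytes from blood, and those of Itgal (LFA-1), Itgam (Mac-1, CD11b) and Itgax (CD11c) pair with that of Itgb2 and bind ICAM molecules or complement fragments.

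On mouse genome build GRCm38, Itga1 and Itga2 are neighbours on the minus strand of chromosome 13 from 114953096 to 115101964 and from 114833081 to 114932100. Itgal, Itgam and Itgax lie on the plus strand of chromosome 7 from 127296260 to 127335138, from 128062640 to 128118491 and from 128129547 to 128150657. Itgae is found on chromosome 11 from 73090583 to 73147446 (plus strand), and Itga4 on chromosome 2 from 79255426 to 79333123 (plus strand). The beta subunit genes are Itgb1 on chromosome 8 from 128685654 to 128733200 (plus strand), Itgb2 on chromosome 10 from 77530252 to 77565708 (plus strand) and Itgb7 on chromosome 15 from 102215995 to 102231944 (minus strand). Haspin overlaps Itgae and Cerkl overlaps Itga4 on the opposite strand, while Pelo overlaps Itga1 on its own strand, and how reads of overlapping genes were divided is not stated. Haspin was found in the CD8 T gate at 0.0932 and 0.0531 UMIs per 10000 (control skins) and 0.115 and 0.119 (skin tumors). Pelo was found there at 0.0311, 0.0354, 0.0234 and 0.0198 in the same order of libraries.

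The 250 bases before the start of Itga1, Itga2 and Itga4 are shown because these alpha subunit genes moved in opposite directions in lymphocytes. RefSeq (GRCm38.p6) gave such a sequence for 7 of the 10 members. Capitals mark GGAA or its reverse TTCC, the core letters of ETS factor motifs, and TGTGGT or its reverse ACCACA, the core letters of RUNX factor motifs, searched on both strands. The windows are chr13:115101965-115102214 (minus strand), chr13:114932101-114932350 (minus strand) and chr2:79255176-79255425 (plus strand), each written 5' to 3'.
Itga1: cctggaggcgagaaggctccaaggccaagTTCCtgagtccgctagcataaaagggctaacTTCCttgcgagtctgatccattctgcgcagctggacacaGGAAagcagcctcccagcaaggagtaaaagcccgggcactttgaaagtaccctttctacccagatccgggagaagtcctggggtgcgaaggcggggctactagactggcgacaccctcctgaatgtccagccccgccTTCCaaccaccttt
Itga2: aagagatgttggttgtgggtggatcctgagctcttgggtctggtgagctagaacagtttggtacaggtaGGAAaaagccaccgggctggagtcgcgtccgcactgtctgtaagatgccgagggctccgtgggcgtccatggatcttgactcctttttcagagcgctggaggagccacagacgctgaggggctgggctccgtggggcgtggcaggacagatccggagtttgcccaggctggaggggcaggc
Itga4: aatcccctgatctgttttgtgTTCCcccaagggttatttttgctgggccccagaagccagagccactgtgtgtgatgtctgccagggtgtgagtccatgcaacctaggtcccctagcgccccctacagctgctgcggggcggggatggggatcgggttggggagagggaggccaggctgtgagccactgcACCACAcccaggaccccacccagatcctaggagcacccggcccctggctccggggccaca
The Itga1 window held 4 matches of GGAA or TTCC and the windows of Itga2 and Itga4 held 1 each, and 93.4% of 32851 promoters of the same length held at least 1. Itga4 held 1 match of TGTGGT or ACCACA, which 14% of the promoters held, and Itga1 and Itga2 held 0. CAGAC or its reverse GTCTG was also searched and is not marked. Its matches numbered 1, 3 and 1 in Itga1, Itga2 and Itga4, and 42.2% of the promoters held it. A match in these letters is a description of the window and not a site of binding.

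After the filters, 12395 cells were used (2892 and 2994 of the control skins and 4555 and 1954 of the skin tumors), with a median of 10276 to 13100 UMIs per cell. Between 1 and 7 cell barcodes were shared by pairs of libraries. Marker genes, without any integrin, placed 7866 cells in 1 of 15 gates. These were dendritic epidermal T cells (DETC), gamma delta T cells (gdT), CD8 T, CD4 T, regulatory T cells (Treg), NK cells, type 2 innate lymphoid cells (ILC2), mast cells (Mast), neutrophils (Neu), Langerhans cells (LC), conventional dendritic cells of types 1 and 2 (cDC1, cDC2), mature dendritic cells (mDC), monocytes (Mono) and macrophages (Mac). In a check of 30 pairs of a class and a marker outside its gate, 2 per class with some genes used for more than 1 class, 30 lay above the median of the other classes and 27 ranked first or second. The CD4 T gate took cells with Cd4 and without a Foxp3 UMI, so Treg whose Foxp3 was not captured can lie in it. The part of such cells in the CD4 T values was not tested. Every library held at least 10 cells in 11 of the gates, and these were fitted. Gates of the resident skin cells were small in tumors, with 15 and 23 DETC, 9 and 11 ILC2 and 1 and 5 LC. The 15 DETC of tumor replicate 1 were low in their own markers, with Trdc at 6.56 UMIs per 10000 against 21.6 and 22.2 in control skins and 17 in tumor replicate 2. In the ILC2 gate, the keratinocyte genes Krt14 and Krt5 summed to 1.71 and 19.3 UMIs per 10000 in control skins, and in the CD8 T gate to 3.68 and 0.0177 in control skins and 0 in both tumors. Cells with at least 5 UMIs of keratinocyte or fibroblast genes per 10000 numbered 3 and 8 in the ILC2 gate and 2 and 0 in the CD8 T gate of control skins, and leaving out all such cells kept all 17 calls made below. Xist, which female cells express, lay at 0.00615 UMIs per 10000 or less in every library. Ddx3y and Uty of the Y chromosome lay at 0.963 or more and 1.51 or more. By these counts the cells of every library were male, while the methods name female and male hosts.

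The comparison of skin tumors with control skins asks how the adhesion genes of each leukocyte class differ once a tumor has formed. Of 110 pairs of member and fitted class, 86 passed the filter on low counts and were tested. In DETC, where the control sums were far larger, Itgam passed it with 1 and 1 UMIs in tumors. Of the 86 pairs, 17 (19.8%) passed edgeR's quasi-likelihood test at a Benjamini-Hochberg adjusted p of 0.05. These were 6 with higher and 11 with lower levels in tumors. They belonged to 5 of the 10 genes. For Itgae in CD8 T and NK and for Itga1 in CD4 T and NK, the filter on low counts was passed through the control skins alone. For Itga4 in Treg and Mast it was passed through the tumors alone. The direction of these calls was thus fixed before the test. Over all genes, the share called in the same classes ran from 0.0% in Neu to 10.7% in cDC2. Itgae and Itga1 were called only with lower levels and Itga4 only with higher levels, Itga2 was called once in each direction, and Itgb7 was called lower in 1 class. Itgb1, Itgal, Itgb2, Itgam and Itgax were called in none of the fitted classes by edgeR. At an unadjusted p under 0.05 these 5 had 0, 2, 1, 1 and 2 classes, and DESeq2's Wald test called 1, Itgax in DETC (log2 fold change 3.03, adjusted p = 1.82e-05, with 15 and 23 cells in tumors). That test also called Itgb7 in DETC and Itgae in macrophages, both lower.

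The calls lay mostly in alpha beta T cells and NK cells. In the CD8 T gate 4 of 8 members tested were called, where 9.16% of 8137 genes were. In the CD4 T gate the count was 4 of 8 with 8.71% of 7554 genes called, and in Treg it was 2 of 7 with 4.01% of 5631. In the NK gate 3 of 10 members were called against 2.56% of 6358 genes. Among the other classes, 1 member was called in DETC (of 10; background 0.0285% of 10512 genes), Mast (of 4; 1.7% of 2415), cDC1 (of 8; 5.38% of 7113) and cDC2 (of 9; 10.7% of 8228), so that in cDC2 the share of members was near that of all genes. No member was called in Mono (of 8; 0.548% of 7483 genes), Mac (of 9; 0.446% of 11872) or Neu (of 5; 0.0% of 2924, with 185 genes at an unadjusted p under 0.05) by edgeR. Of these members 2, 3 and 0 had an unadjusted p under 0.05, and DESeq2's Wald test called 0, 1 and 0. The median log2 fold change of the members tested was -0.93 in CD8 T and -0.18 in CD4 T, where the medians of all genes were 0.03 and 0.04.

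**Figure D1:**
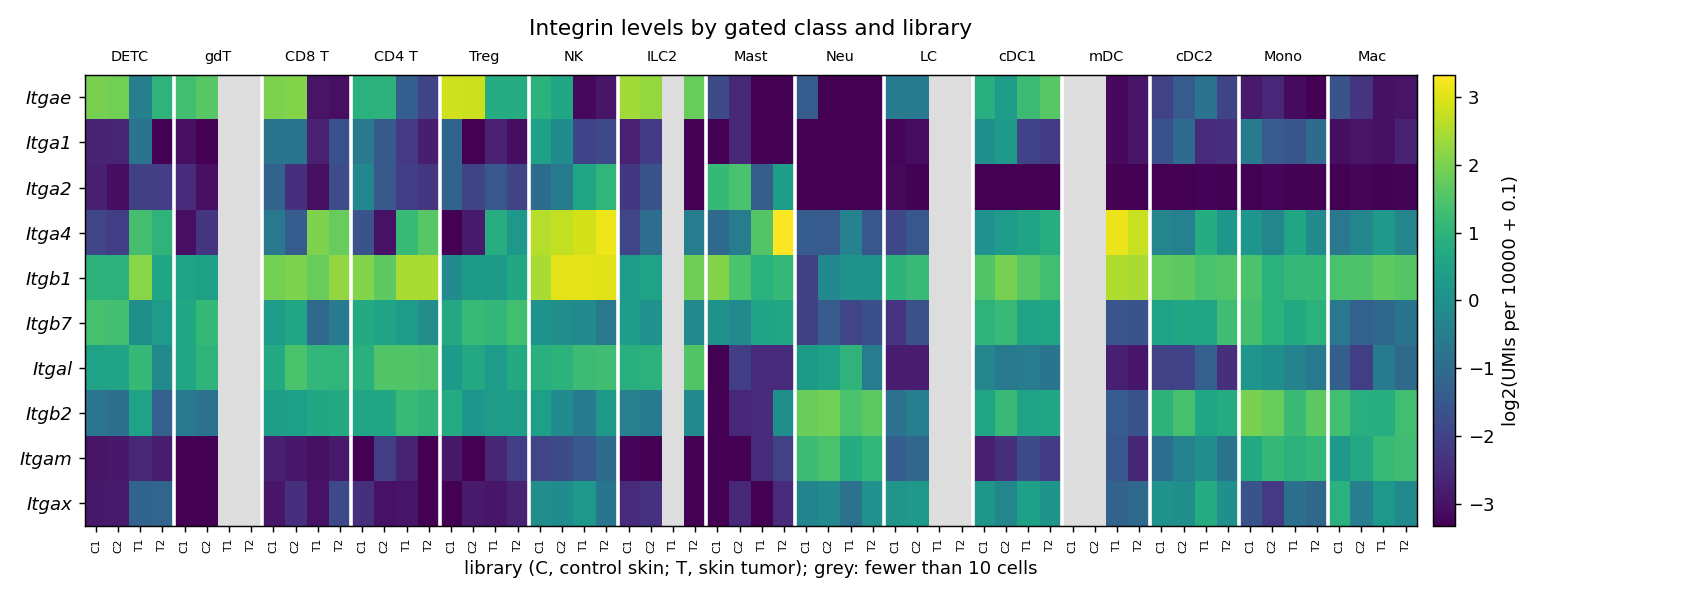
Level of each member (rows) in each gated class and library (columns; C1 and C2, control skins; T1 and T2, skin tumors), as log2 of UMIs per 10000 plus 0.1, with grey where a library held fewer than 10 cells. Itgae is bright in the control libraries of DETC, CD8 T, Treg and ILC2, Itga4 in all 4 NK libraries and in mDC, and Itgam in Neu, Mono and Mac.

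Itgae was lower in skin tumors in all 4 lymphocyte gates in which it was called. In CD8 T and NK cells it passed the filter on low counts through the control skins alone, so the direction of those calls was fixed before the test. All levels that follow are in UMIs per 10000. In the CD8 T gate, Itgae was found at 3.92 and 4.16 in the control skins and 0.0281 and 0.0198 in the skin tumors. Both tumors lay far below both control skins, at 12 and 1 UMIs of the gene among 256 and 39 cells, and the mean was 169-fold lower (log2 fold change -7.33 ± 0.32 (SE), adjusted p = 6.04e-05). In NK cells the levels were 1.87 and 1.42 in the control skins and 0.0108 and 0.0325 in the skin tumors. The tumor values rest on 3 UMIs in all, and the ratio of control to tumor was 86.3 with a 95% counting interval of 29 to 424 (log2 fold change -6.29 ± 0.47 (SE), adjusted p = 0.000714). In CD4 T cells the levels were 1.81 and 1.87 in the control skins and 0.297 and 0.157 in the skin tumors, which is 8.11-fold lower in tumors (log2 fold change -3.04 ± 0.31 (SE), adjusted p = 0.00125). Treg held the highest level in control skin of all gates and the highest level of the 4 called classes in tumors, with 7.11 and 6.96 in the control skins and 1.62 and 1.63 in the skin tumors (4.32-fold lower, log2 fold change -2.11 ± 0.27 (SE), adjusted p = 0.000519). These 4 calls held without any 1 of the 4 libraries, with adjusted p of up to 0.000168 in CD8 T, 0.00318 in NK, 0.0373 in CD4 T and 0.0349 in Treg. The log2 fold change in NK was -5.65 without tumor replicate 1 and -6.98 without tumor replicate 2, and in CD8 T it was -8.17 with stricter gates and -8.78 without cycling cells.

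The order of the gates by Itgae differed between the groups. In control skin, Treg (7.04 ± 0.110, SD, n = 2), ILC2 (4.95 ± 0.330), CD8 T (4.04 ± 0.167) and DETC (3.73 ± 0.122) came first, each apart from the next, while CD4 T (1.84) and NK (1.65) overlapped. Among the 12 gates with at least 10 cells in both skin tumors, which leaves out ILC2, cDC1 came first (2.60 ± 0.491), followed by Treg (1.63 ± 0.00496) and DETC (1.26 ± 0.899), which overlapped. In cDC1, a dendritic cell that presents antigen to CD8 T cells and carries CD103 in many tissues, the levels were 1.69 and 1.15 in the control skins and 2.25 and 2.95 in the skin tumors. Both tumors lay above both control skins, but the difference did not pass the test (log2 fold change 0.61 ± 0.32 (SE), adjusted p = 0.281), and 1 of the 11 cells of tumor replicate 2 held 34.4% of its UMIs. In DETC the levels were 3.82 and 3.64 in the control skins and 0.621 and 1.89 in the skin tumors, again without overlap and without a call (log2 fold change -1.73 ± 0.56 (SE), adjusted p = 0.454). Of the 9 UMIs in the 15 cells of tumor replicate 1, 88.9% came from 1 cell. ILC2 was not fitted, and its 140 to 168 cells in control skins and 11 cells in tumor replicate 2 gave 5.18 and 4.72 against 3.36. The tumor value rests on 17 UMIs, 64.7% of them in 1 cell. Without the cells that held keratinocyte UMIs the control mean of ILC2 was 5.49. In macrophages Itgae lay at 0.226 and 0.0994 in the control skins and 0.0222 and 0.0272 in the skin tumors (log2 fold change -2.84 ± 0.51 (SE), adjusted p = 0.078), and 60.9% of the UMIs of control replicate 1 came from 1 cell.

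The share of cells with an Itgae UMI, taken after each cell had been thinned to 2000 UMIs, separated the groups in the same classes. In CD8 T cells it was 51.3 ± 3.31% in control skins and 1.48 ± 1.54% in skin tumors (mean and SD, n = 2), and 91.4 ± 2.91% and 3.04 ± 0.673% without thinning. In Treg it was 71.1 ± 3.09% and 27.9 ± 1.8%, in CD4 T 30.8 ± 2.31% and 2.46 ± 0.34%, and in NK 22 ± 2.83% and 0.877 ± 1.24%. Neutrophils, which do not use CD103, gave 0% in all 4 libraries after thinning, and 6.67 ± 9.43% in control skins and 0% in skin tumors without it. With 15, 53, 81 and 68 neutrophils thinned, a count of 0 allows a share of up to 20, 5.66, 3.7 and 4.41%. The thinned shares in tumor CD8 T, CD4 T and NK cells were thus not told apart from that background. Without thinning, tumor CD4 T cells gave 7.58 ± 4.43%, from 31 and 13 UMIs, beside the 0% of tumor neutrophils. Depth is not matched there, as neutrophils held fewer UMIs per cell. Intervals in the plot of thinned shares cover counting error only.

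**Figure D2:**
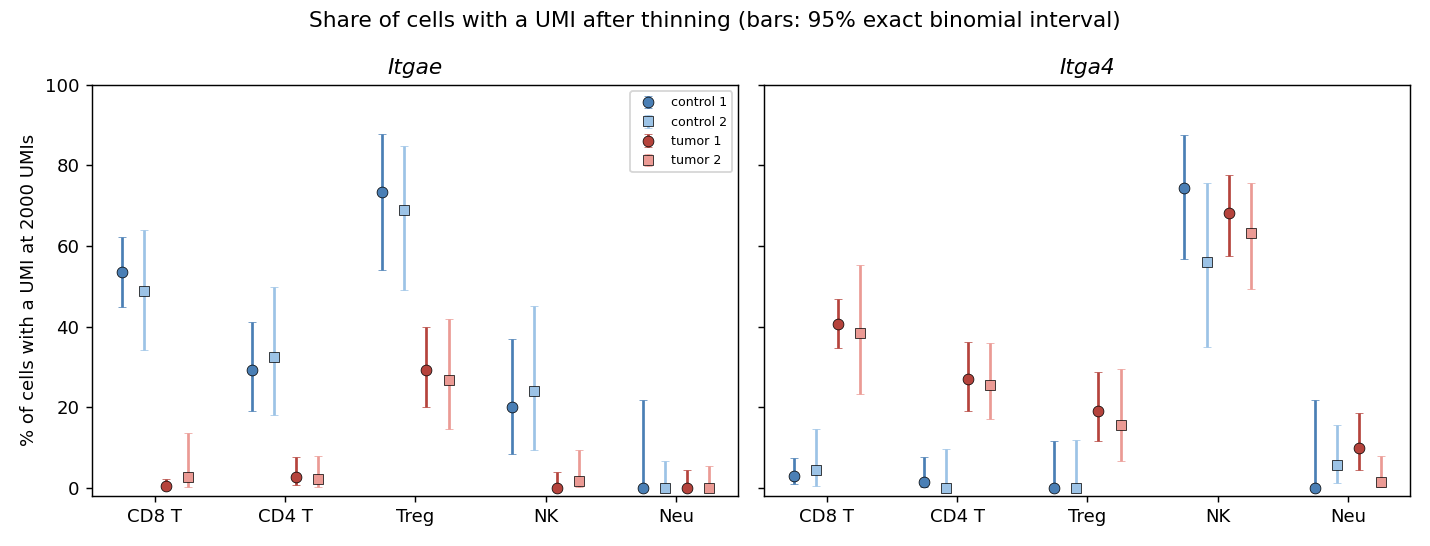
Percent of cells with at least 1 UMI of Itgae (left) and Itga4 (right) after thinning to 2000 UMIs per cell, with 1 point per library and exact 95% binomial intervals, in 4 lymphocyte gates and in neutrophils. Itgae falls from 51.3% to 1.48% of CD8 T cells between the group means, while Itga4 goes from 3.58% to 39.5%.

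Itgb7, the beta partner of Itgae, moved less. In CD8 T cells it was found at 1.15 and 1.4 in the control skins and 0.391 and 0.554 in the skin tumors, and the tumors lay 2.69-fold below the control skins (log2 fold change -1.65 ± 0.26 (SE), adjusted p = 0.00878, up to 0.0444 without any 1 library). Treg gave 1.5 and 2.11 in the control skins and 2.02 and 2.39 in the skin tumors, with overlapping groups (log2 fold change 0.29 ± 0.29 (SE), adjusted p = 0.687). In CD4 T cells the levels were 1.58 and 1.37 in the control skins and 1.17 and 0.869 in the skin tumors (log2 fold change -0.61 ± 0.25 (SE), adjusted p = 0.17). In DETC they were 2.52 and 2.42 in the control skins and 0.897 and 1.14 in the skin tumors (log2 fold change -1.47 ± 0.37 (SE), adjusted p = 0.429). In both the tumors lay below both control skins without passing the test. Monocytes, which held the second highest mean of Itgb7 in control skin, gave 2.45 and 1.8 in the control skins and 1.54 and 1.82 in the skin tumors with overlap. Of CD8 T cells with an Itgae UMI in control skins, 64.3 and 76.2% also had an Itgb7 UMI, as did 64.5 and 74.5% of all cells of that gate.

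Itga1 was lower in skin tumors in 5 classes, 3 of lymphocytes and 2 of dendritic cells. In NK and CD4 T cells it passed the filter on low counts through the control skins alone, which fixed the direction of those calls. In NK cells it was found at 1.3 and 0.847 in the control skins and 0.151 and 0.179 in the skin tumors, and the groups did not overlap (6.52-fold lower in tumors, log2 fold change -2.76 ± 0.37 (SE), adjusted p = 0.00661). The NK gate can hold other innate lymphocytes of group 1, which carry CD49a. In the 18, 19, 76 and 52 NK cells with a UMI of Eomes, a factor of conventional NK cells, the log2 fold change of Itga1 was -3.04 with an adjusted p of 0.0991. Without cycling cells the log2 fold change was -2.34 with an adjusted p of 0.0553. In cDC1 the levels were 0.887 and 1.08 in the control skins and 0.151 and 0.123 in the skin tumors (7.18-fold lower, log2 fold change -3.03 ± 0.39 (SE), adjusted p = 0.0032). With 1 library left out, the log2 fold change lay between -3.21 and -2.92. The level of tumor replicate 2 rests on 4 UMIs, 2 of them in 1 of its 11 cells, and 63.6% of these cells were cycling. This call was not tested without cycling cells or with stricter gates. In cDC2 they were 0.22 and 0.401 in the control skins and 0.0728 and 0.0861 in the skin tumors (log2 fold change -2.26 ± 0.46 (SE), adjusted p = 0.0221, but 0.279 without control replicate 2 and 0.0593 without cycling cells).

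In T cells the levels of Itga1 in control skin were below those in NK cells and cDC1, and the calls depended on single libraries. CD8 T cells gave 0.491 and 0.496 in the control skins and 0.0539 and 0.218 in the skin tumors (log2 fold change -2.58 ± 0.57 (SE), adjusted p = 0.0281). In tumor replicate 2, 81.8% of the UMIs came from 1 cell, without which its level was 0.0404. The adjusted p was 0.0878 without control replicate 1, 0.0667 without control replicate 2, 0.0777 without tumor replicate 1 (log2 fold change -1.32, against -3.31 without tumor replicate 2) and 0.104 with gates of doubled thresholds. CD4 T cells gave 0.566 and 0.263 in the control skins and 0.115 and 0.0483 in the skin tumors (log2 fold change -2.44 ± 0.55 (SE), adjusted p = 0.0261, and 0.38 without control replicate 1, with a log2 fold change of -1.65, against -3.20 without tumor replicate 1). In monocytes, which held the highest mean of Itga1 in skin tumor, the groups overlapped at 0.575 and 0.277 in the control skins and 0.245 and 0.397 in the skin tumors (log2 fold change -0.30 ± 0.44 (SE), adjusted p = 0.873), and no neutrophil held a UMI of the gene.

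Itga2 went in opposite directions in NK and CD4 T cells. NK cells, which carry CD49b as a lineage marker, held 0.408 and 0.574 in the control skins and 1.4 and 1.98 in the skin tumors, so that both tumors lay above both control skins (3.45-fold, log2 fold change 1.75 ± 0.29 (SE), adjusted p = 0.0189). This call was lost without control replicate 1 (adjusted p = 0.109), without control replicate 2 (0.0592), without cycling cells (0.0618) and in NK cells with an Eomes UMI (0.151), and the direction remained in each. The thinned share of NK cells with an Itga2 UMI was 10.3 ± 2.42% in control skins and 24.8 ± 7.1% in skin tumors, with 0% in neutrophils. CD4 T cells held 0.755 and 0.263 in the control skins and 0.134 and 0.109 in the skin tumors (log2 fold change -2.22 ± 0.53 (SE), adjusted p = 0.0324). Without control replicate 1 the log2 fold change was -1.11 (adjusted p = 0.436), and with the stricter gates -1.23 (0.226). Mast cells held the highest Itga2 of all gates in control skin, with 2.08 and 2.55 in the control skins and 0.289 and 1.19 in the skin tumors (log2 fold change -1.42 ± 0.58 (SE), adjusted p = 0.26). In CD8 T cells the groups overlapped at 0.323 and 0.0885 in the control skins and 0.0211 and 0.198 in the skin tumors.

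**Figure D3:**
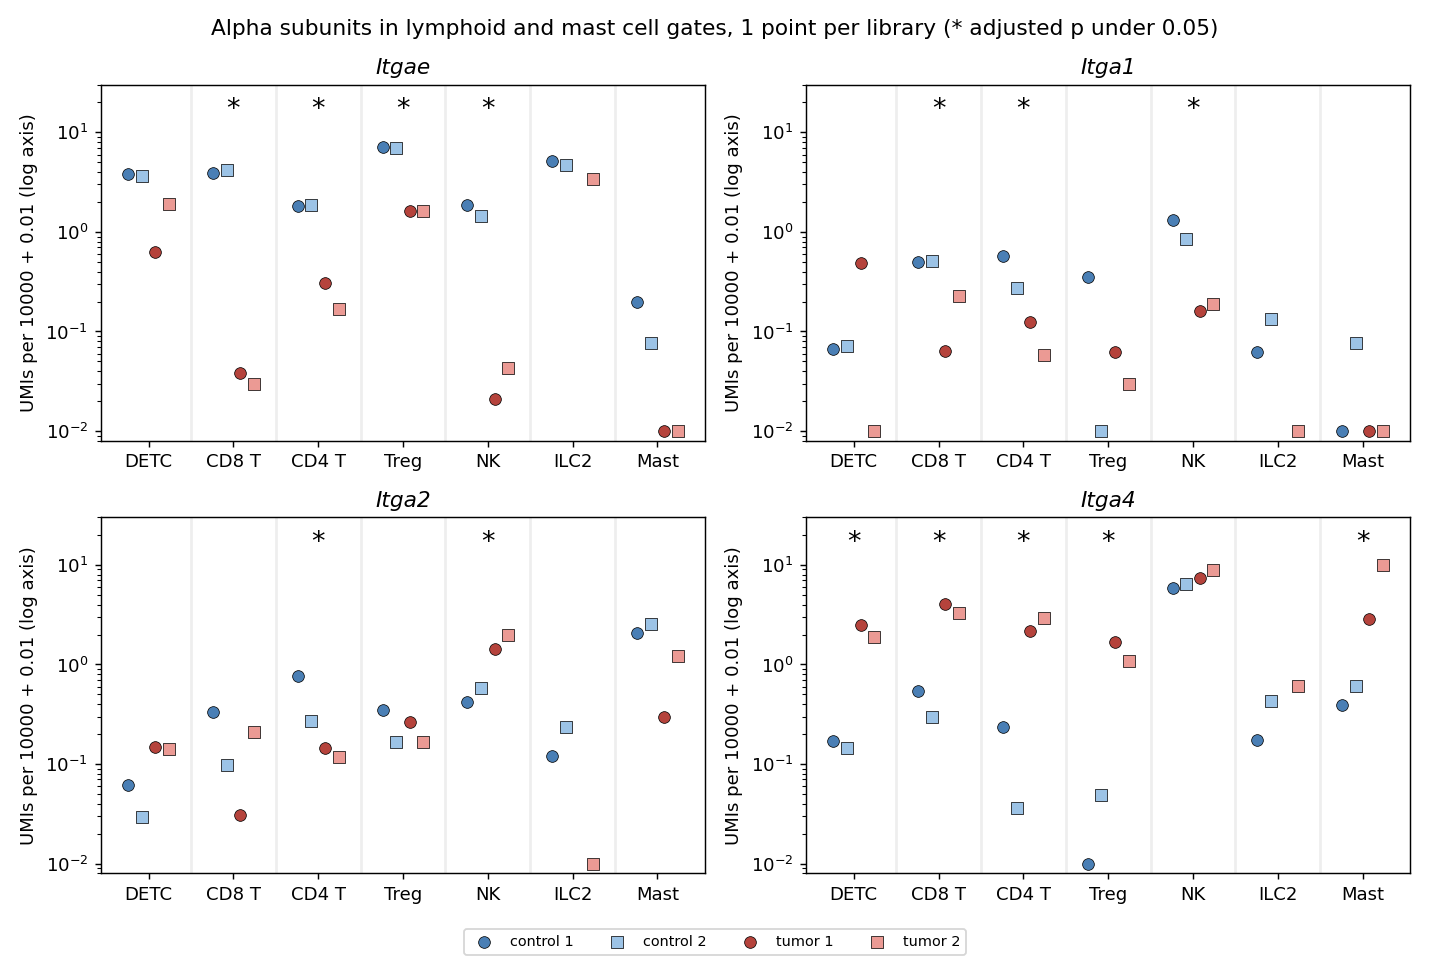
Level of Itgae, Itga1, Itga2 and Itga4 in 7 gates (horizontal axis), with 1 point per library on a log axis of UMIs per 10000 and asterisks where the adjusted p was under 0.05. The tumor points lie below the control points for Itgae in CD8 T, CD4 T, Treg and NK, and above them for Itga4 in DETC, CD8 T, CD4 T, Treg and Mast.

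Itga4 was higher in skin tumors in the CD8 T, CD4 T and Treg gates, where it was low in control skin. CD8 T cells held 0.534 and 0.283 in the control skins and 4.04 and 3.31 in the skin tumors, a difference of 8.99-fold with no overlap (log2 fold change 2.91 ± 0.32 (SE), adjusted p = 0.00282). CD4 T cells held 0.226 and 0.0263 in the control skins and 2.17 and 2.91 in the skin tumors (20.1-fold higher in tumors, log2 fold change 3.95 ± 0.47 (SE), adjusted p = 0.00231). In Treg, the control skins gave 0 UMIs of the gene in 31 cells and 1 in 29 cells, and the levels were 0 and 0.0391 in the control skins and 1.67 and 1.07 in the skin tumors. The ratio of tumor to control, with 214 UMIs against 1, was 80.0 with a 95% counting interval of 14.2 to 3176 (log2 fold change 6.07 ± 0.73 (SE), adjusted p = 0.000499). In Treg the gene passed the filter on low counts through the tumors alone, so the direction of this call was fixed before the test. The 3 calls held without any 1 library, with adjusted p of up to 0.00992, 0.0305 and 0.0179, but their sizes moved with the few control UMIs. In CD4 T cells the log2 fold change was 6.49 without control replicate 1, where 55.6% of 18 UMIs came from 1 cell, and 3.30 without control replicate 2. In Treg these values were 5.04 and 9.34 (8.39 with gates of doubled thresholds), and in CD8 T cells it was 3.59 without control replicate 1. The thinned share of cells with an Itga4 UMI rose from 3.58 ± 0.959% to 39.5 ± 1.53% in CD8 T, where neutrophils gave 2.83 ± 4.0% and 5.67 ± 5.94%, and it was 26.3 ± 1.04% in CD4 T and 17.3 ± 2.51% in Treg of skin tumors.

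NK cells held Itga4 in both groups, at 5.91 and 6.42 in the control skins and 7.36 and 8.82 in the skin tumors, the highest mean of the 14 gates with enough cells in control skin (6.16 ± 0.361) and of the 12 in skin tumor (8.09 ± 1.04), where mDC (7.72 ± 1.36) overlapped with it. Both tumors lay above both control skins by a small margin that did not pass the test (log2 fold change 0.35 ± 0.22 (SE), adjusted p = 0.542). In mast cells the levels were 0.379 and 0.603 in the control skins and 2.82 and 9.92 in the skin tumors (log2 fold change 3.78 ± 0.66 (SE), adjusted p = 0.0364). There Itga4 passed the filter on low counts through the tumors alone, which fixed the direction of this call. Of the UMIs in tumor replicate 2, 60.9% came from 1 of 23 cells, and without it the level was 5.13. The adjusted p was 0.159 without control replicate 1 and 0.481 without control replicate 2, and the log2 fold change was 2.78 without tumor replicate 2 and 3.06 with the stricter gates. In DETC the levels were 0.162 and 0.135 in the control skins and 2.48 and 1.89 in the skin tumors (log2 fold change 3.65 ± 0.28 (SE), adjusted p = 0.0395). Here 1 of 23 cells held 81.4% of the UMIs of tumor replicate 2, without which its level was 0.365. This gate was low in DETC markers in both tumors, and the 15 cells of tumor replicate 1 were those with few Trdc UMIs. The adjusted p in DETC was 0.0573 without control replicate 1, 0.169 without control replicate 2, 0.0777 with doublets kept and 0.187 without the filter on low counts. Myeloid classes moved less, with 0.711 and 0.652 in the control skins and 1.63 and 1.05 in the skin tumors in cDC2 (log2 fold change 0.78 ± 0.26 (SE), adjusted p = 0.0911) and overlapping groups in monocytes and macrophages. In cDC1 both tumors also lay above both control skins without a call, and 40.7% of the Itga4 UMIs of tumor replicate 2 came from 1 cell.

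Itgb1, the shared beta subunit of the collagen and VCAM-1 receptors, did not pass the test in any fitted class. In CD8 T cells, where Itga4 and Itga1 moved apart, it was found at 3.73 and 4.02 in the control skins and 3.32 and 4.61 in the skin tumors (log2 fold change -0.14 ± 0.23 (SE), adjusted p = 0.757). In NK cells, which held its highest level in both groups, it was found at 5.46 and 8.25 in the control skins and 8.23 and 7.88 in the skin tumors (log2 fold change 0.20 ± 0.25 (SE), adjusted p = 0.808). In both gates the groups overlapped. CD4 T cells held 4.14 and 3.08 in the control skins and 5.46 and 5.46 in the skin tumors, with both tumors above both control skins (log2 fold change 0.52 ± 0.25 (SE), adjusted p = 0.235).

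The genes Fos, Jun and Hspa1a, which cells switch on during digestion of tissue, also differed between the groups in these gates. Their summed level in CD8 T cells was 6.2 and 3.35 in the control skins and 20.6 and 19 in the skin tumors. In CD4 T cells it was 2.05 and 1.53 in the control skins and 27.9 and 25.3 in the skin tumors, in Treg 2.25 and 1.25 in the control skins and 8.82 and 31.2 in the skin tumors and in NK cells 11.8 and 5.82 in the control skins and 36.3 and 29 in the skin tumors, so that both tumors lay above both control skins in each of the 4 gates. The same held in DETC (17.1 and 11.3 in the control skins and 23.1 and 35 in the skin tumors), cDC1 (16.8 and 13.2 in the control skins and 25.5 and 42.8 in the skin tumors) and cDC2 (11.2 and 11.6 in the control skins and 41.6 and 55 in the skin tumors). Mast cells overlapped, at 62.3 and 43.1 in the control skins and 87.4 and 25.9 in the skin tumors. Cycling cells, with at least 2 UMIs of Mki67 and Top2a, made up 26.1 and 23.4% of the CD8 T gate of control skins, against 59.4 and 30.8% of that of skin tumors. Without them, the calls of Itgae and Itga4 in CD8 T, CD4 T and Treg remained. The part of the digestion genes in the integrin differences was not tested.

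**Figure D4:**
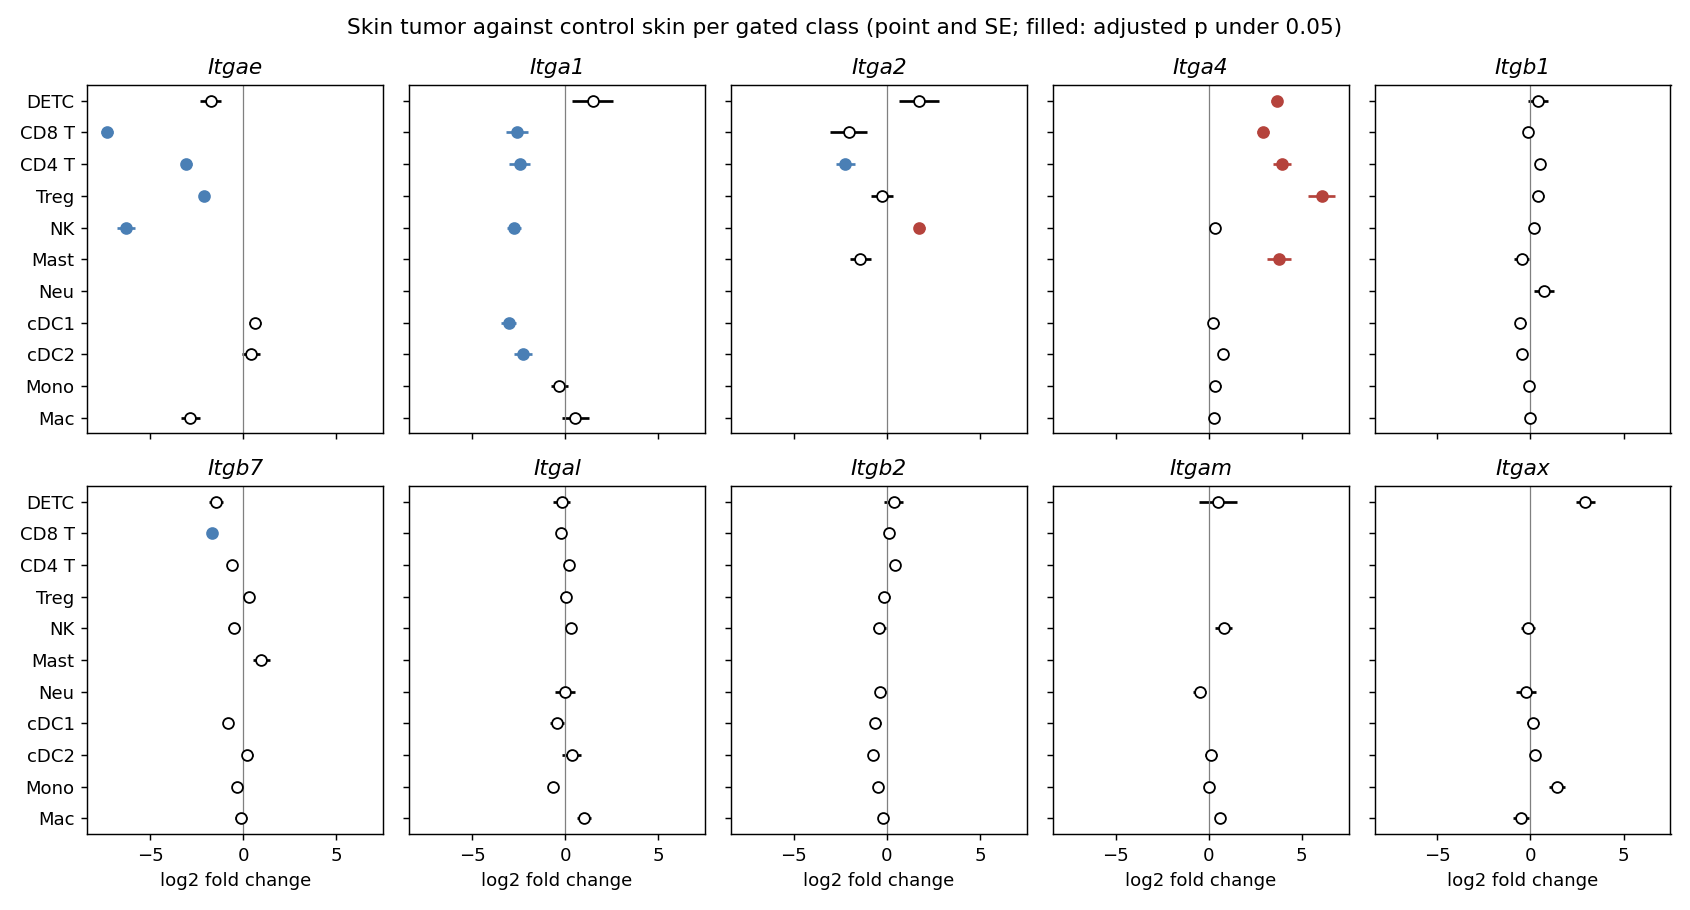
Log2 fold change of skin tumor against control skin (horizontal axis, with its SE) for each member in the classes in which it was fitted, filled where the adjusted p was under 0.05 (red, higher in tumors; blue, lower). Itgae reaches -7.33 in CD8 T and Itga4 6.07 in Treg, while no point of Itgb1, Itgal, Itgb2, Itgam or Itgax is filled.

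No member of the Itgb2 family passed the test in a gate. Itgal, the LFA-1 alpha subunit of lymphocytes, was found in CD4 T cells at 1.75 and 2.79 in the control skins and 2.79 and 2.68 in the skin tumors. In CD8 T cells it was found at 1.57 and 2.62 in the control skins and 1.99 and 1.96 in the skin tumors, with overlapping groups in both. NK cells held 1.77 and 1.86 in the control skins and 2.27 and 2.34 in the skin tumors (log2 fold change 0.30 ± 0.21 (SE), adjusted p = 0.588). Macrophages held 0.305 and 0.136 in the control skins and 0.568 and 0.395 in the skin tumors (log2 fold change 1.04 ± 0.38 (SE), adjusted p = 0.311). Monocytes held 1.03 and 0.886 in the control skins and 0.685 and 0.547 in the skin tumors (log2 fold change -0.65 ± 0.26 (SE), adjusted p = 0.403). In each of these 2 gates the groups did not overlap, in opposite directions, and neither passed the test.

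Itgam, the alpha subunit of Mac-1, was highest in neutrophils of control skin and in macrophages of skin tumor. Macrophages held 1.09 and 1.51 in the control skins and 2.18 and 2.35 in the skin tumors, with both tumors above both control skins (log2 fold change 0.59 ± 0.24 (SE), adjusted p = 0.36). Neutrophils held 2.25 and 2.57 in the control skins and 1.63 and 2.01 in the skin tumors, with both tumors below (log2 fold change -0.48 ± 0.34 (SE), adjusted p = 0.832). Monocytes held 1.53 and 2.04 in the control skins and 1.84 and 2.01 in the skin tumors, with overlap. Itgax, the CD11c gene of dendritic cells and macrophages, was found in cDC2 at 0.972 and 0.897 in the control skins and 1.62 and 0.912 in the skin tumors. In cDC1 it was found at 1.04 and 0.731 in the control skins and 1.29 and 0.983 in the skin tumors, and in macrophages at 1.79 and 0.623 in the control skins and 1.06 and 0.814 in the skin tumors. The groups overlapped in all 3 of these gates. In monocytes it was found at 0.23 and 0.116 in the control skins and 0.449 and 0.367 in the skin tumors, higher in both tumors (log2 fold change 1.43 ± 0.41 (SE), adjusted p = 0.223), and in LC of control skins at 1.01 and 1.08. In tumor cDC1, 56.3% of the Itgax UMIs of replicate 2 came from 1 cell.

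Itgb2, the beta subunit common to these 3, was found in neutrophils at 3.37 and 3.68 in the control skins and 2.64 and 3.06 in the skin tumors (log2 fold change -0.36 ± 0.29 (SE), adjusted p = 0.846). In monocytes it was found at 3.87 and 3.36 in the control skins and 2.22 and 3.06 in the skin tumors (log2 fold change -0.48 ± 0.25 (SE), adjusted p = 0.553). In both, the tumors lay below the control skins without a call. In cDC2 it was found at 1.85 and 2.51 in the control skins and 1.41 and 1.6 in the skin tumors (log2 fold change -0.76 ± 0.25 (SE), adjusted p = 0.0858), and in macrophages the groups overlapped.

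**Figure D5:**
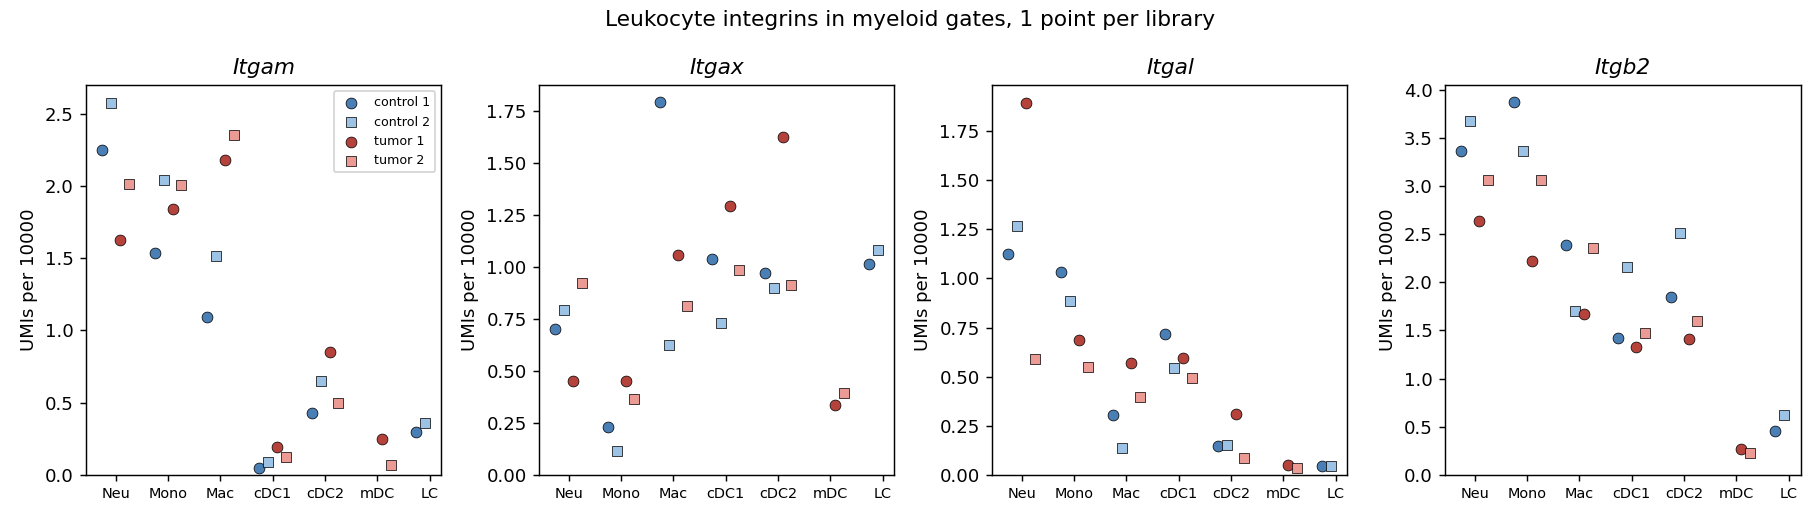
Level of Itgam, Itgax, Itgal and Itgb2 (vertical axes, UMIs per 10000, starting at 0) in 7 myeloid gates, with 1 point per library and blue for control skins and red for skin tumors. Itgam lies at 2.18 and 2.35 in tumor macrophages against 1.09 and 1.51 in control macrophages, a difference that did not pass the test.

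Summed over all cells of a library, 4 of 10 members were called, where 23.4% of 16362 genes were. In such sums fewer cells of a type and less RNA per cell cannot be told apart, and the gates changed in size. Itgae was found at 2.35 and 1.84 in the control skins and 0.197 and 0.207 in the skin tumors (log2 fold change -3.53 ± 0.17 (SE), adjusted p = 0.00456). Itgb7 was found at 1.25 and 1.25 in the control skins and 0.64 and 0.741 in the skin tumors (log2 fold change -1.01 ± 0.13 (SE), adjusted p = 0.0142), and both were lower in tumors. Itga4 was found at 0.47 and 0.534 in the control skins and 1.7 and 1.26 in the skin tumors (log2 fold change 1.41 ± 0.20 (SE), adjusted p = 0.0176). Itgam was found at 0.23 and 0.493 in the control skins and 1.52 and 1.49 in the skin tumors (log2 fold change 1.89 ± 0.40 (SE), adjusted p = 0.0364), and both were higher. Macrophages in the gate numbered 54 and 192 in control skins, against 1883 and 631 in the tumors, while DETC numbered 640 and 691 against 15 and 23. The 4 calls were lost without control replicate 1 (adjusted p from 0.0827 to 0.166) and without control replicate 2 (0.0663 to 0.108), and that of Itgam also without tumor replicate 1 (0.0524). The log2 fold change of Itgam was 2.54 without control replicate 2.

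Whether the tumor difference itself varied between classes was tested in 5 pairs of classes, with a term for each library. Between CD8 T and CD4 T cells, 1 of 8 members differed, against 1.29% of 8283 genes. This was Itgae, whose log2 fold change was 4.47 ± 0.42 further down in CD8 T cells (adjusted p = 0.000474). Between CD8 T and NK cells 1 of 10 members differed (0.554% of 7401 genes), which was Itga4, with a log2 fold change 2.63 ± 0.37 higher in CD8 T cells (adjusted p = 0.0164). Between macrophages and monocytes 1 of 9 differed (0.648% of 9880 genes), which was Itgal, 1.82 ± 0.35 higher in macrophages (adjusted p = 0.0402), but 0.773 without the library term and 0.167 with the stricter gates. No member of 8 differed between Treg and CD4 T cells (0.963% of 7895 genes by edgeR, with 3 of the 8 at an unadjusted p under 0.05), nor any of 9 between cDC2 and monocytes (3.84% of 8732 genes, with 3 of the 9 under that value).

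Of 16 other integrin subunits, 5 were tested in CD8 T cells and 2 rose, where 9.16% of all genes were called. The counts were 1 of 4 in CD4 T (8.71% of all genes) and 1 of 3 in cDC2 (10.7%), and lists this short allow no reading against those shares. Itgav pairs with several beta subunits to bind RGD ligands and latent TGF-beta. It was found in CD8 T cells at 1.91 and 2.48 in the control skins and 6.43 and 8.57 in the skin tumors (log2 fold change 1.62 ± 0.25 (SE), adjusted p = 0.0075). Its partner Itgb8 was found there at 0 and 0 in the control skins and 0.105 and 0.297 in the skin tumors. Over the group this is at least 9.12-fold higher when 3 UMIs are set for control skin. Having 0 control UMIs, it passed the filter on low counts through the tumors alone. The direction of its call (adjusted p = 0.0253) was thus fixed before the test. In CD4 T cells 1 of 4 rose, Itgb8, with 0.0755 and 0.132 in the control skins and 0.747 and 1.27 in the skin tumors (log2 fold change 3.30 ± 0.45 (SE), adjusted p = 0.00345). Treg without a captured Foxp3 UMI, which the CD4 T gate can hold, were not told apart here. In cDC2 1 of 3 fell, Itgav, with 1.34 and 1.43 in the control skins and 0.666 and 0.585 in the skin tumors (log2 fold change -1.36 ± 0.23 (SE), adjusted p = 0.0115). The median log2 fold change of the subunits tested was -0.37 in CD8 T and 0.66 in CD4 T, beside 0.03 and 0.04 over all genes. None was called in DETC, Treg, NK, Mast, Neu, cDC1, Mono or Mac.

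Of 11 ligand genes, Cdh1, which encodes the E-cadherin that CD103 binds, was lower in 3 lymphocyte gates. In all 3 it passed the filter on low counts through the control skins alone, so the direction of these calls was fixed before the test. It was 1 of 2 ligand genes tested in CD8 T (9.16% of all genes called), 1 of 2 in CD4 T (8.71%) and 1 of 3 in NK (2.56%). Lists this short allow no reading against those shares. It was found in CD8 T cells at 0.503 and 0.248 in the control skins and 0.0891 and 0 in the skin tumors (log2 fold change -2.66 ± 0.65 (SE), adjusted p = 0.0402). In CD4 T cells it was found at 0.377 and 0.447 in the control skins and 0.0383 and 0 in the skin tumors (log2 fold change -4.23 ± 0.70 (SE), adjusted p = 0.00757), and in NK cells at 0.387 and 0.382 in the control skins and 0.0432 and 0.0813 in the skin tumors (log2 fold change -2.69 ± 0.54 (SE), adjusted p = 0.0358). Over whole libraries Cdh1 was found at 0.986 and 1.11 in the control skins and 0.0903 and 0.0781 in the skin tumors (12.4-fold lower), and LC, which carry E-cadherin, numbered 370 and 335 against 1 and 5. The part of RNA from other cells in the gate values was not tested. Vcam1, the ligand of the Itga4 product, rose in macrophages, with 0.0787 and 0.325 in the control skins and 3.39 and 2.34 in the skin tumors (14.2-fold, log2 fold change 3.45 ± 0.49 (SE), adjusted p = 0.0444), the 1 call among 9 ligand genes tested there (0.446% of all genes called). The collagen genes Col1a1 and Col1a2 fell in cDC2, from 25 and 24 UMIs in control skins to 0 in tumors, which is at least 8.18-fold and 7.85-fold lower. They were 2 of 5 ligand genes tested there (10.7% of all genes called). Both passed the filter on low counts through the control skins alone, so the direction of these calls was fixed before the test. In the same gate the fibroblast markers Col3a1 and Col1a1 summed to 0.115 and 0.150 in control skins and to 0.00520 and 0 in tumors. Most of the control sum was Col1a1 itself, at 0.0941 and 0.100, so it is no separate measure of fibroblast RNA. The part of RNA from fibroblasts was not tested. The sort for CD45 selected against the epithelial and stromal cells that make most of these ligands.

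Of 20 genes that regulate integrin activation or link integrins to the cytoskeleton, none rose in a gate. The list holds restraining genes such as Cytip, so a fall in it is not by itself a fall in activation. The falls were 2 of 17 tested in CD8 T (9.16% of all genes called), 2 of 18 in CD4 T (8.71%), 2 of 16 in cDC2 (10.7%), 1 of 15 in cDC1 (5.38%), 1 of 10 in Mast (1.7%) and 1 of 17 in Mono (0.548%), so that the first 4 counts were near the share of all genes. Ptk2b, the kinase Pyk2, fell in CD8 T cells from 5.92 and 5.19 to 2.78 and 2.79 (log2 fold change -1.16 ± 0.22 (SE), adjusted p = 0.0174) and in CD4 T cells by a log2 fold change of -1.13. Cytip, which restrains LFA-1 adhesion, fell in CD8 T cells (log2 fold change -0.90 ± 0.22 (SE), adjusted p = 0.0418) and in cDC1 (log2 fold change -1.68 ± 0.30 (SE), adjusted p = 0.0129). Fermt2, a kindlin more typical of adherent cells, went from 30 UMIs to 0 in CD4 T and from 24 to 0 in Mast, at least 15.9-fold and 10.8-fold lower. In both gates it passed the filter on low counts through the control skins alone, which fixed the direction of these calls. Over whole libraries Fermt2 was found at 3.56 and 3.57 in the control skins and 0.076 and 0.393 in the skin tumors (15.2-fold lower), and Skap1 at 3.85 and 2.85 in the control skins and 1.06 and 1.3 in the skin tumors. The part of RNA from other cells was not tested here either. Skap1 fell in monocytes (log2 fold change -4.28 ± 0.59 (SE), adjusted p = 0.017) and in cDC2, where 3 UMIs were left in tumors, and Rap1a fell in cDC2 (log2 fold change -0.93 ± 0.23 (SE), adjusted p = 0.0392). In both of its gates Skap1 passed the filter on low counts through the control skins alone, which fixed the direction of those calls. The median log2 fold change of the genes tested was -0.38 in CD8 T and -0.03 in CD4 T.

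Of 9 genes of residency and egress, Cxcr6, a chemokine receptor that holds T cells in tissue, fell with Itgae in CD8 T cells, from 10.0 and 9.0 to 4.27 and 6.26 (log2 fold change -1.03 ± 0.26 (SE), adjusted p = 0.0454), and also in CD4 T (log2 fold change -1.58 ± 0.27 (SE), adjusted p = 0.00838) and NK cells (log2 fold change -3.10 ± 0.54 (SE), adjusted p = 0.021). S1pr1, the receptor that guides cells out of tissue, fell in CD8 T cells as well (log2 fold change -1.32 ± 0.27 (SE), adjusted p = 0.0227). Prdm1, the factor Blimp-1 of resident and effector T cells, rose in CD8 T (log2 fold change 1.25 ± 0.27 (SE), adjusted p = 0.0281) and CD4 T cells (log2 fold change 2.28 ± 0.33 (SE), adjusted p = 0.00444) and fell in cDC2. Klf2, a factor of recirculating cells, rose in Treg (log2 fold change 1.77) and in NK cells (1.10), and Ccr7 rose in CD4 T cells (log2 fold change 1.37 ± 0.25 (SE), adjusted p = 0.012). Cd69 rose in cDC1 and cDC2 and was not called in any lymphocyte gate. In cDC1 it passed the filter on low counts through the tumors alone, which fixed the direction of that call. In CD8 T cells Cd69 lay at 2.02 and 1.56 in the control skins and 1.22 and 0.891 in the skin tumors (log2 fold change -0.90 ± 0.26 (SE), edgeR adjusted p = 0.0707). Treg tumors also lay below both control skins, while the groups overlapped in DETC, CD4 T and NK. Of the list, 1 of 8 tested rose and 2 fell in CD8 T (9.16% of all genes called), and 2 of 7 rose and 1 fell in CD4 T (8.71%). In NK 2 of 7 rose and 1 fell (2.56%), and in Treg 2 of 8 rose (4.01%). In cDC1 1 of 3 rose (5.38%), and in cDC2 1 of 6 rose and 1 fell (10.7%). Each count covers all tested genes of the list, named here or not. In the sums over whole libraries, where 23.4% of all genes were called, 2 of 16 other subunits rose (Itga9 and Itgb5), 3 of 10 ligand genes rose and 2 fell, 2 of 20 genes of integrin activation rose and 6 fell, and 1 of 9 residency and egress genes rose and 2 fell.

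Over the 53 sums of class and library with at least 10 cells, the members most alike in their log2 levels were Itgam and Itgax (Pearson's r = 0.63), Itgam and Itgb2 (0.61) and Itga4 and Itgb1 (0.60), while Itgae and Itgb7 reached 0.47 and Itgae and Itga4 -0.49. These sums share libraries and differ in depth, so the values are descriptions. Among 8166 genes, those most like Itgae were Gpr55 (0.80), Clcn3 (0.77) and Zdhhc23 (0.75), those most like Itga4 were Hspd1 (0.71), Hsp90aa1 (0.71) and Car2 (0.68), those most like Itga2 were Myb, Bcr and Cd55 (0.81 to 0.84), and those most like Itgam were Igsf6 (0.93), Gm34084 (0.91) and Cd300lb (0.91). For Itgal they were Ifngr1, Hip1 and Sipa1l1 (0.83 to 0.86), for Itgb2 Kdm7a, Slc43a2 and Cd52 (0.77 to 0.79) and for Itgax Fmnl2, Plcg2 and Sgk3 (0.80 to 0.81). For Itgb1 they were Ccdc50, Caprin1 and Clec2i (0.68 to 0.72), for Itgb7 Tmsb10, Lpxn and Glud1 (0.65 to 0.71) and for Itga1 Dnajc15, Clec2i and Slc25a24 (0.60 to 0.64). Hspd1 and Hsp90aa1 are heat shock genes.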

How the data were processed

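The authors deposited raw UMI counts of genes in cells for 4 droplet libraries, mapped to mm10 with Cell Ranger (7.1.0 in the processing notes, 7.0.1 in the file headers), without normalization or pooling. The filters of the study were applied (at least 100 genes and 1000 UMIs, at most 15% mitochondrial UMIs, log10 genes over log10 UMIs of at least 0.8), and the highest 1% of doublet scores per 1000 cells was removed with Scrublet in scanpy 1.11.5, 453 cells in all. Gates used marker UMIs of single cells. Counts were summed per library and gate and divided by all UMIs of the sum for levels. Groups were compared with edgeR 4.0.16 (TMM factors, filterByExpr, quasi-likelihood test, Benjamini-Hochberg adjustment over all genes of a class, threshold 0.05), and each SE was obtained by dividing the size of the log2 fold change by the root of the F statistic. Differences between classes came from class-by-group terms beside a library term. Alternatives were DESeq2 1.42.0 and its size factors, no filter on low counts, stricter gates, doublets kept, no cycling cells, the replicate number as a block, 1 library left out and, chosen after values had been seen, NK cells with an Eomes UMI and no cells with keratinocyte or fibroblast UMIs. An exact permutation test of 2 against 2 libraries cannot go below p = 0.333 and was not used. The fits were checked on simulated counts. The members and lists were chosen with earlier results of these data known. All 10 members were described, and of each list the genes past the threshold, up to 4 per class. Protein sequences were not used here, and 1 allele of the tumor line and 1 gene of the residency list are not reported here.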

Additional observations from a re-analysis of the deposited data

Results flagged for a closer look

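In 3 cases the log2 fold change of a member differed between a pair of classes by the class-by-group term of edgeR. For Itgae, the change in CD8 T minus that in CD4 T was -4.47 (adjusted p = 0.000474), and both classes fell. For Itga4, the change in CD8 T minus that in NK was 2.63 (adjusted p = 0.0164). For Itgal, the change in macrophages minus that in monocytes was 1.82 (adjusted p = 0.0402), with neither class called on its own. The first 2 were also called with DESeq2's size factors, with stricter gates and without the library term, and that of Itgal with DESeq2's size factors only.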

How the results depend on the processing

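Of the 17 calls in gates, DESeq2's Wald test, DESeq2's size factors in edgeR and the exclusion of cells with keratinocyte or fibroblast UMIs kept 17. Keeping doublets kept 16, no filter on low counts 16, stricter gates 12 of the 14 that could be fitted and leaving out cycling cells 13 of 16. With stricter gates 7 pairs were called lower in place of 11, with fewer cells and 14 of the 17 pairs fitted. With 1 library left out, 3 to 12 pairs were called higher and 8 to 17 lower, where 6 and 11 were called with all 4. The low ends came without control replicate 1 (3 and 8; 3 and 9 without control replicate 2) and the high ends without tumor replicate 2 (12 and 17), where the lone sample is assumed to vary like the other group. In whole library sums, 0 to 3 were called higher and 0 to 3 lower, with 0 and 0 without either control library, and 2 and 2 with all 4. The share of all genes called with 1 library left out is not given here. These counts thus do not show whether the members shifted more than other genes did. The cause of these shifts was not tested. The tests between classes gave 3 calls, 3 with DESeq2's size factors, 2 with stricter gates and 2 without the library term. No value changed sign among the calls under these alternatives.

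Whether same-numbered samples share a day or batch is not given in the sources used here. Their deviations correlated from -0.0754 to 0.17 over 12 fits. With 2 libraries per group this cannot exclude a shared batch. With the replicate number as a block, 6 pairs were called higher and 11 lower in gates and 2 and 2 in whole libraries, and all 17 gated calls were kept.

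Of 260 levels, 58 moved by more than the spread between replicates when taken as a mean over cells, 22 with doublets kept and 8 without the cells that held keratinocyte or fibroblast UMIs, as did 43 of 240 with stricter gates. Groups of 2 libraries, and tumor libraries with 11 to 39 cells in the DETC, cDC1, Mast or CD8 T gate, limit the precision.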
